A study of Homo sapiens with 11 samples.

Results

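The miR-17-92 polycistron is a group of microRNAs (miRNAs) that are cut from 1 primary transcript, MIR17HG. Its members were chosen by name, as 10 of the 2576 mature miRNAs counted, and all 10 passed the low-count filter in both experiments. The question was whether products of 1 transcript moved together when cells met hydrogen peroxide (H2O2). The cells were SH-SY5Y, a human neuroblastoma line subcloned from SK-N-SH, with no genetic change named in the labels, and all 4 groups were differentiated into neuron-like cells with all-trans retinoic acid (ATRA) for 7 days. In the co-treatment experiment, 3 H2O2 libraries came from cells given 10 µM H2O2 together with ATRA for the 7 days, and 3 control libraries from cells given ATRA without H2O2. In the pre-treatment experiment, 3 H2O2 libraries came from cells kept in 10 µM H2O2 for 72 h, which was then withdrawn before ATRA, and 2 control libraries from cells that met no H2O2 before ATRA. The submitters described triplicates of which 1 sample was removed as an outlier, and here the pre-treatment controls number 2. Epithelial-like cells can persist in cultures of this line, and in bulk RNA fewer cells of a type and less RNA per cell cannot be told apart.

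In a polycistron, the enzymes Drosha and then Dicer cut each hairpin into a duplex of a 5p and a 3p arm, of which usually 1 arm is kept in an Argonaute protein and the other is degraded. The seed near the 5′ end of the kept arm pairs with target mRNAs, so that products with the same seed form a family with shared targets. Transcription of MIR17HG is driven by MYC and, in neuroblastoma, by MYCN, and its products are known to repress inhibitors of the cell cycle and proapoptotic proteins.

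By exact matches of the RefSeq sequences to GRCh37 (the build hg19, on which the reads were mapped), the 6 hairpins lay on the plus strand at chr13:92002859-92003645, a span of 787 bases, in the order MIR17, MIR18A, MIR19A, MIR20A, MIR19B1 and MIR92A1. The host gene MIR17HG spanned chr13:91999940-92049846, and each of the 10 mature sequences overlapped an exon in 3 of the 11 annotated transcripts that crossed it and lay in an intron of the others. The mature sequences that the results turn on are shown from 5′ to 3′, with the seed (bases 2 to 8) in capitals, as given by RefSeq (GRCh38.p14). The miR-17 family shares the seed of miR-17-5p and miR-20a-5p, which 6 other human miRNAs also carry:
hsa-miR-17-5p: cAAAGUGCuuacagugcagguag
hsa-miR-20a-5p: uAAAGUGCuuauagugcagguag
miR-18a-5p has a seed of its own, carried by 2 other human miRNAs:
hsa-miR-18a-5p: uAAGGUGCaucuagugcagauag
The miR-19 family has no other human member in the table:
hsa-miR-19a-3p: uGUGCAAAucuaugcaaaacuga
hsa-miR-19b-3p: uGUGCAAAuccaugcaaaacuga
The seed of miR-92a-3p is shared with 5 other human miRNAs:
hsa-miR-92a-3p: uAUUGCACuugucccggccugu
The arms opposite miR-18a-5p and miR-20a-5p are shown because the former did not follow its partner and the latter did:
hsa-miR-18a-3p: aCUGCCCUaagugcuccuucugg
hsa-miR-20a-3p: aCUGCAUUaugagcacuuaaag
Of the 10 sequences, 8 matched the genome at 1 place. miR-19b-3p and miR-92a-3p matched at 2, the other being on chromosome X (MIR19B2 and MIR92A2). Their counts may thus hold products of both loci, or be too low if reads that fit 2 places were dropped. miR-17-5p differed from miR-106a-5p, miR-18a-5p from miR-18b-5p and miR-19a-3p from miR-19b-3p at 1 position each, and how reads that fit several places were assigned is not given in the sources used here, so values of these miRNAs are uncertain to that extent.

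Libraries held 5343953 to 8927582 counts, and values are given as CPM, counts scaled to a common library total with TMM factors over the 11 libraries. At this depth 3 counts corresponded to 0.331 to 0.502 CPM, a limit that covers counting error only. The pre-treatment controls were less alike than other replicates (r = 0.919 over 404 miRNAs, against 0.976 to 0.997 between replicates of the other groups). Of the neuronal markers, miR-375 averaged 2723 CPM and miR-128-3p 1680 CPM in the co-treatment libraries, whereas miR-124-3p did not pass the filter in either experiment. The summed neuronal list ranged from 4608 to 5235 CPM in co-treatment controls and from 4421 to 5123 CPM with H2O2. In pre-treatment it ranged from 4185 to 7424 CPM in controls and from 4010.0 to 4438 CPM with H2O2, where miR-375 was lowered (log2FC -1.32 ± 0.35 SE, FDR 0.0168, edgeR exact test). By the quasi-likelihood test miR-375 did not pass (FDR 0.066). The other neuronal markers tested there had a log2FC above 0 and were not called, namely miR-9-3p (1.64), miR-128-3p (0.61), miR-7-5p (0.45) and miR-9-5p (0.06). The blood cell list summed to at most 121 CPM in any library, and miR-133a-3p of muscle was at 0 in all libraries.

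miR-20a-5p was the most abundant product in every library and made up 42.3% to 70.8% of the summed counts of the 10 members. In co-treatment controls the mean levels ran from miR-20a-5p (17519.6 ± 3310.3 CPM, SD, n = 3) through miR-19a-3p (6859.6 ± 2959.8) and miR-17-5p (4618 ± 2212) to miR-18a-5p (959 ± 193) and miR-92a-3p (849 ± 251). The ranges of miR-19a-3p and miR-17-5p overlapped, as did those of miR-18a-5p and miR-92a-3p. The remaining products averaged 246 (miR-17-3p), 184 (miR-20a-3p), 119 (miR-19b-3p), 94.5 (miR-18a-3p) and 9.22 CPM (miR-92a-1-5p). The places of miR-19b-3p and miR-92a-3p in this order may depend on how reads that fit 2 places were counted. The sum of the 10 members was 27159 to 34104 CPM in co-treatment controls and 13655 to 18659 CPM in co-treatment H2O2 libraries, whereas it was 10487 to 12622 CPM in pre-treatment controls and 16681 to 24004 CPM in pre-treatment H2O2 libraries. The summed level was thus lower with H2O2 in one regimen and higher in the other, without overlap in either. The controls of the experiments, although both were differentiated without H2O2, did not overlap in this sum, and their experiment and any batch between experiments cannot be told apart. The plot of CPM by library shows these levels for each product.

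**Figure D1:**
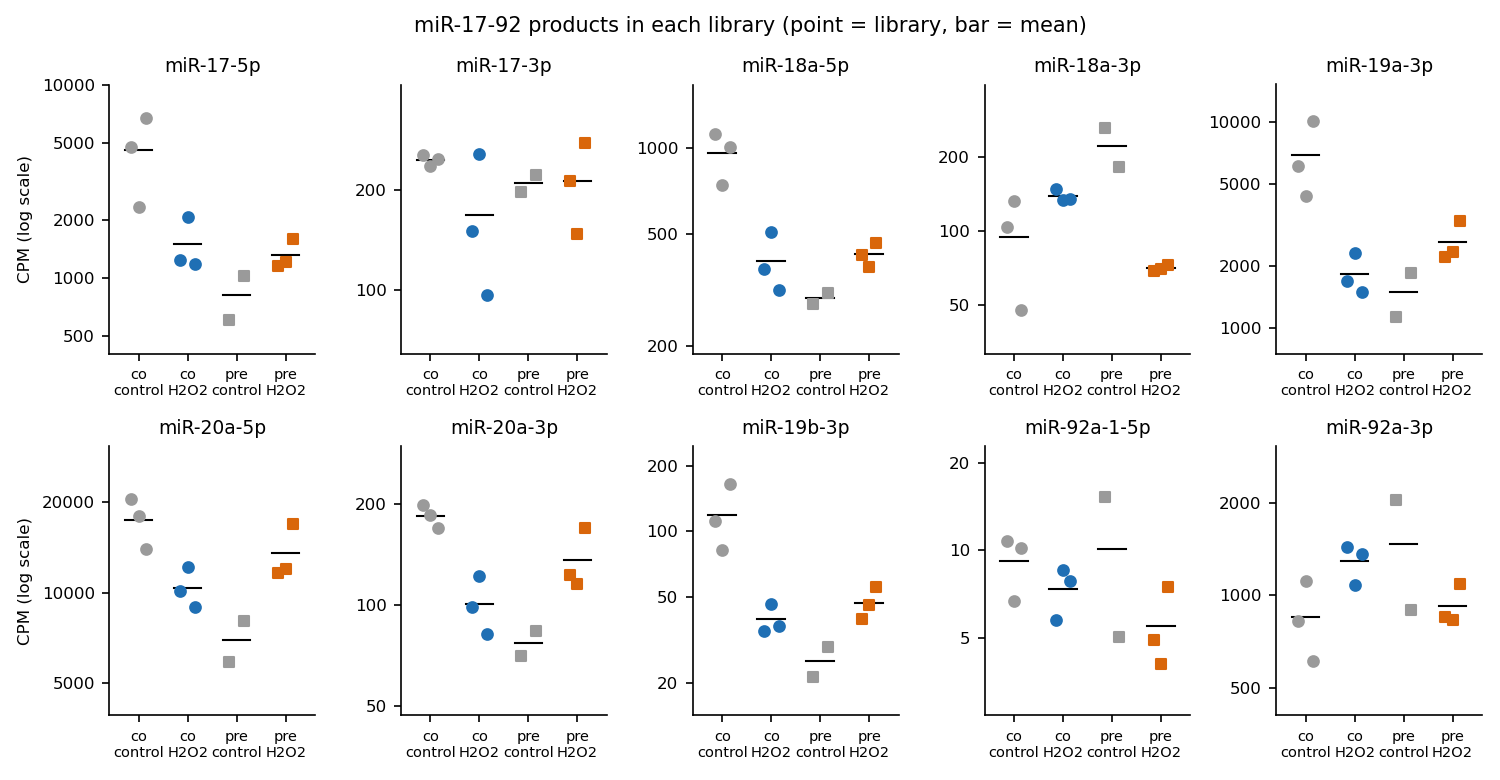
CPM of each miR-17-92 product (log scale) in the 11 libraries, with 1 point per library and a bar at the group mean. In co-treatment 6 products lay lower in all H2O2 libraries than in all controls, and in pre-treatment 6 lay higher, while miR-18a-3p ran the other way in both.

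In co-treatment, H2O2 lowered 6 of the 10 products (miR-17-5p, miR-18a-5p, miR-19a-3p, miR-19b-3p and both arms of miR-20a) and raised 0 (edgeR exact test, FDR under 0.05 and absolute log2FC above 0.6). At an unadjusted p under 0.05 the count of raised products was still 0 by this test and 1 by DESeq2. Of the 790 miRNAs tested in this experiment, 15.6% were lowered and 10.6% raised. The quasi-likelihood test lowered the same number of products, 6, against 14.2% of all tested. The H2O2 libraries lay below the controls without overlap for 6 products (20.6% of all tested), above them for miR-18a-3p (20.8% of all tested) and overlapped for the other 3. The median log2FC of the 10 products was -0.84, against -0.04 over all miRNAs tested. The products thus did not move as a single block, since their log2FC ranged from -1.92 to 0.56.

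miR-19a-3p had the largest fall from the counts, and miR-17-5p came next. miR-19a-3p, the more abundant of the 2 products of the miR-19 family, was at 6115, 4343 and 10121 CPM in controls 1 to 3 and 1691, 2292 and 1488 CPM in H2O2 libraries 1 to 3. Every H2O2 library lay under the lowest control (log2FC -1.92 ± 0.29 SE, FDR 1.71e-06, edgeR exact test). miR-19b-3p, of the same seed, had far fewer counts, at 111, 82.2 and 164 CPM in controls and 34.9, 46.5 and 36.8 CPM with H2O2. Its low level may depend on how reads that fit 2 places were counted. The groups did not overlap, and control 3 was the highest library for both miR-19 products (log2FC -1.61 ± 0.29 SE, FDR 1.58e-05, edgeR exact test).

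Of the miR-17 family, whose targets include the cell cycle inhibitor CDKN1A, miR-17-5p was at 4801, 2319.8 and 6732 CPM in controls and 1232, 2056 and 1173 CPM with H2O2. Its highest H2O2 library came close to control 2, the lowest, but did not reach it (log2FC -1.64 ± 0.32 SE, FDR 0.000143, edgeR exact test). miR-20a-5p was at 20565, 17998 and 13996 CPM in controls and 10143, 12159 and 8954 CPM with H2O2. It fell less, with control 1 the highest and no overlap (log2FC -0.78 ± 0.23 SE, FDR 0.024, edgeR exact test). Its opposite arm miR-20a-3p, the scarce arm of the duplex, was at 199, 185 and 169.7 CPM in controls and 98.7, 122 and 82.03 CPM with H2O2, also without overlap (log2FC -0.90 ± 0.27 SE, FDR 0.0108, edgeR exact test). The calls of both miR-20a arms rested on single libraries. Without control 1, H2O2 library 1 or H2O2 library 3, the log2FC of miR-20a-5p was -0.55, -0.74 and -0.65 and that of miR-20a-3p -0.75, -0.86 and -0.74, and neither passed the thresholds. The other 4 falls were called whichever library was left out. miR-18a-5p, of the separate miR-18 family, was at 1120.1, 745 and 1013 CPM in controls and 377, 508 and 317 CPM with H2O2. All its H2O2 libraries lay well under the controls (log2FC -1.28 ± 0.27 SE, FDR 0.000395, edgeR exact test).

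The other 4 products did not pass the test in co-treatment. miR-18a-3p, cut from the same hairpin as miR-18a-5p, was at 103, 132 and 47.9 CPM in controls and 148, 134 and 135 CPM with H2O2. The H2O2 libraries were close together and just above control 2, the highest (log2FC 0.51 ± 0.33 SE, FDR 0.27, edgeR exact test). miR-92a-3p, the last product of the transcript, was at 824, 1112 and 612 CPM in controls and 1434, 1077 and 1363 CPM with H2O2. Only H2O2 library 2 and control 2 overlapped (log2FC 0.56 ± 0.28 SE, FDR 0.151, edgeR exact test). miR-17-3p was at 255, 236 and 247 CPM in controls and 151, 255 and 97.2 CPM with H2O2. Its controls were nearly equal, whereas H2O2 library 2 stayed at their level and the others were lower (log2FC -0.58 ± 0.32 SE, FDR 0.179, edgeR exact test). miR-92a-1-5p, the arm opposite miR-92a-3p, was scarce, at 10.8, 6.71 and 10.2 CPM in controls and 5.74, 8.53 and 7.86 CPM with H2O2, with overlap (log2FC -0.35 ± 0.32 SE, FDR 0.497, edgeR exact test). Without control 2, miR-18a-3p (log2FC 0.88) and miR-92a-3p (0.86) were called as raised, and without H2O2 library 2, miR-92a-3p (0.79) was called as raised and miR-17-3p (-0.92) as lowered. Of 12 epithelial and mesenchymal markers, 11 were in the files. Their sum also lay lower with H2O2 in this experiment (10215 to 13281 CPM, against 15527 to 16859 CPM in controls). This sum was chiefly miR-143-3p (mean 11179 CPM in the co-treatment libraries), which did not pass the test (FDR 0.0702, edgeR exact test). Only 1 of these 11 markers was lowered, miR-199a-5p, which was too scarce to shape the sum. Of the other markers, miR-9-5p (log2FC -1.06) and miR-142-5p (-1.30) were lowered and miR-486-5p (2.53) raised in this experiment (edgeR exact test). By the quasi-likelihood test miR-9-5p did not pass (FDR 0.0651). The part of these markers in the results was not tested.

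**Figure D2:**
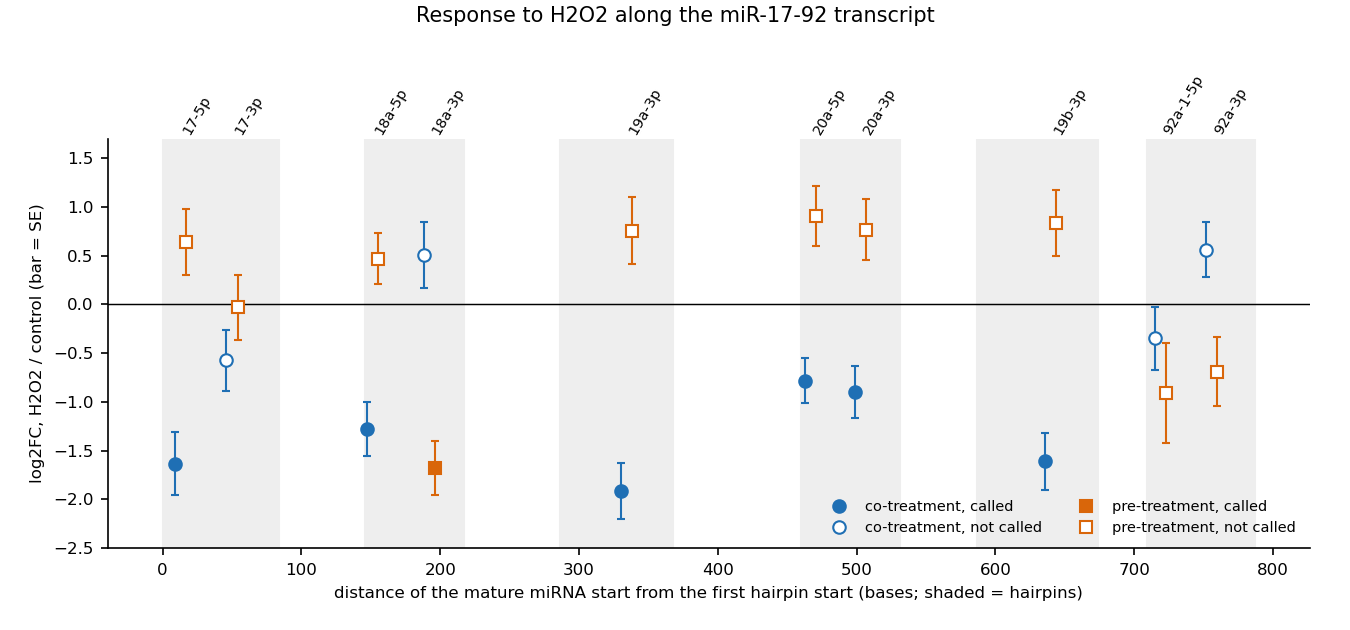
log2FC of H2O2 against control (± SE) for each mature product, by the distance in bases of its start from the start of the first hairpin, with hairpins shaded and products that passed the thresholds filled. Products of the same hairpin lie on both sides of 0 for miR-18a in both experiments. They also do so for miR-92a in co-treatment and for miR-17 in pre-treatment, where miR-17-3p is near 0 (-0.03). Of the products, 8 have opposite signs in the 2 experiments.

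In pre-treatment, H2O2 lowered 1 product, miR-18a-3p, and the other 9 did not pass the test (edgeR exact test). Of the 868 miRNAs tested, 9.91% were lowered and 5.41% raised. The H2O2 libraries lay above both controls for 6 products (25.2% of all tested) and below them for miR-18a-3p (22.4% of all tested). The median log2FC of the products was 0.55, against -0.19 over all miRNAs tested. The only called change, in miR-18a-3p, was from 262 and 181 CPM in controls 1 and 2 to 68.7, 70.05 and 73.1 CPM in H2O2 libraries 1 to 3. The H2O2 libraries were nearly equal and far under the lower control (log2FC -1.68 ± 0.28 SE, FDR 0.000486, edgeR exact test). By the quasi-likelihood test, which lowered 1.5% of all tested, it was lowered too (FDR 0.0317). Its log2FC was -1.42 without control 1 and -1.90 without control 2, each of which leaves 1 control. The fall was not called when H2O2 library 1, 2 or 3 was left out (-1.63, -1.62 and -1.68).

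The products that fell in co-treatment had higher values with H2O2 in pre-treatment, but 0 passed the test (1 at an unadjusted p under 0.05 by the edgeR exact test, 3 by its quasi-likelihood test and 3 by DESeq2). miR-19a-3p was at 1122 and 1847 CPM in controls and 2205, 2338 and 3292 CPM with H2O2. Its H2O2 libraries all lay above control 2, the higher one (log2FC 0.76 ± 0.34 SE, FDR 0.221, edgeR exact test). miR-19b-3p was at 21.5 and 29.3 CPM in controls and 39.7, 45.7 and 55.5 CPM with H2O2, again without overlap (log2FC 0.83 ± 0.34 SE, FDR 0.212, edgeR exact test). miR-17-5p was at 605 and 1017 CPM in controls and 1148, 1199 and 1587 CPM with H2O2. The lowest H2O2 library was only slightly above control 2 (log2FC 0.64 ± 0.34 SE, FDR 0.31, edgeR exact test). miR-20a-5p was at 5878 and 8034 CPM in controls and 11609.5, 12013 and 16993 CPM with H2O2, with H2O2 library 3 well above the rest (log2FC 0.91 ± 0.31 SE, FDR 0.0926, edgeR exact test). miR-20a-3p was at 70.5 and 83.7 CPM in controls and 123, 115 and 169 CPM with H2O2. It followed its partner arm in the place of its highest library (log2FC 0.77 ± 0.32 SE, FDR 0.214, edgeR exact test). miR-18a-5p was at 283 and 308 CPM in controls and 422, 382 and 463 CPM with H2O2, without overlap and with the least change of these 6 (log2FC 0.47 ± 0.26 SE, FDR 0.419, edgeR exact test).

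The remaining 3 products overlapped between groups in pre-treatment, and the last hairpin differed between its controls. miR-92a-3p was at 2035 and 895 CPM in controls and 848, 830.5 and 1088 CPM with H2O2. Control 1 was 2.27 times control 2, which lay among the H2O2 libraries (log2FC -0.69 ± 0.36 SE, FDR 0.271, edgeR exact test). miR-92a-1-5p was at 15.3 and 5.04 CPM in controls and 4.93, 4.06 and 7.45 CPM with H2O2. Its controls were 3.03 times apart (log2FC -0.91 ± 0.51 SE, FDR 0.3, edgeR exact test). miR-17-3p was at 196 and 221 CPM in controls and 212, 148 and 275 CPM with H2O2, with the controls inside the range of the H2O2 libraries (log2FC -0.03 ± 0.33 SE, FDR 0.99, edgeR exact test), and its sign turned when library size replaced TMM (log2FC 0.016). The pre-treatment log2FC depended on which control was used, although leaving out either control leaves only 1. Without control 1, miR-20a-5p was at 0.70 and miR-18a-3p at -1.42, and miR-92a-3p and miR-92a-1-5p were at -0.012 and 0.064. Without control 2, miR-17-5p (1.11), miR-19a-3p (1.21), miR-19b-3p (1.12), miR-20a-5p (1.19) and miR-20a-3p (0.93) lay above 0. In the same fit miR-18a-3p (-1.90), miR-92a-3p (-1.15) and miR-92a-1-5p (-1.49) lay below 0. The summed muscle and liver markers, 3 of 4 in the files and chiefly miR-122-5p, were 97.9 to 257 CPM in these controls and 554 to 838 CPM with H2O2, and their part in these results was not tested. Other markers lowered in this experiment were miR-205-5p (log2FC -4.54), miR-145-5p (-1.26) and miR-223-3p (-4.87, with overlap between groups). miR-451a (2.79) and miR-122-5p (1.88) were raised (edgeR exact test, FDR between 0.000154 and 0.0224 for all of these). By the quasi-likelihood test only miR-451a of these passed (FDR 0.0317), and the others had FDR between 0.0645 and 0.0819. The part of these markers was not tested either.

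The response itself differed between the regimens for 7 of the 10 products (edgeR quasi-likelihood test of the interaction over 11 libraries, FDR under 0.05), against 27.3% of the 945 miRNAs tested. It was higher in pre-treatment for 6 products (12.9% of all tested) and lower for miR-18a-3p (14.4% of all tested). The difference in log2FC, pre-treatment minus co-treatment, was largest for the miR-19 family, at 2.73 ± 0.49 SE, FDR 0.00221 for miR-19a-3p and 2.49 ± 0.47 SE, FDR 0.00261 for miR-19b-3p (quasi-likelihood test). It was 2.33 ± 0.55 SE, FDR 0.007 for miR-17-5p and 1.77 ± 0.39 SE, FDR 0.00551 for miR-18a-5p (quasi-likelihood test). For the miR-20a hairpin both arms differed alike, by 1.71 ± 0.37 SE, FDR 0.00489 for miR-20a-5p and 1.69 ± 0.40 SE, FDR 0.00812 for miR-20a-3p (quasi-likelihood test). miR-18a-3p differed in the opposite direction, by -2.21 ± 0.48 SE, FDR 0.00502, and miR-92a-3p, at -1.27 ± 0.46 SE, FDR 0.0521, and miR-17-3p, at 0.57 ± 0.50 SE, FDR 0.412, did not pass (quasi-likelihood test). Without co-treatment control 2, co-treatment H2O2 library 2 or pre-treatment control 2, miR-92a-3p also differed (-1.50, -1.55 and -1.73). miR-92a-1-5p did not differ beyond its error (-0.57 ± 0.61 SE, FDR 0.512, quasi-likelihood test), and without pre-treatment control 1 its sign turned (0.24). The 7 calls held whichever library was left out. The controls of the 2 experiments also differed in level. miR-17-5p averaged 4618 CPM in co-treatment and 811 CPM in pre-treatment controls, but 1487 and 1312 CPM with H2O2. For miR-19a-3p the means were 6860 and 1484 CPM in controls and 1824 and 2612 CPM with H2O2. For miR-18a-3p they were 94.5 and 222 CPM in controls and 139 and 70.6 CPM with H2O2. The regimen and the experiment in which it was run cannot be told apart.

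Responses also followed the base composition of the mature sequences. Among miRNAs with a mean of at least 10 CPM, the median log2FC in co-treatment was -0.94 for the 68 with a GC content below 40%, -0.34 for the 116 from 40% to below 50% and 0.36 for the 175 at 50% and above. In pre-treatment the order was turned, at 0.70 (65 miRNAs), 0.28 (106) and -0.49 (179). The members were spread over these classes. miR-19a-3p (34.8% GC), miR-20a-3p (36.4%), miR-19b-3p and miR-20a-5p (both 39.1%) were in the lowest class, miR-18a-5p (43.5%) and miR-17-5p (47.8%) in the middle, and miR-17-3p (50%), miR-92a-3p (54.5%) and miR-18a-3p (56.5%) in the highest. Across miRNAs within a library, the correlation of GC content with the deviation from the mean of the experiment was -0.55 to -0.48 in co-treatment controls and 0.45 to 0.70 in co-treatment H2O2 libraries. It was 0.54 in pre-treatment control 1, -0.10 in pre-treatment control 2 and -0.40 to -0.23 in pre-treatment H2O2 libraries. The GC trend of the libraries thus moved with H2O2, in opposite directions in the 2 experiments, and its origin was not tested.

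**Figure D3:**
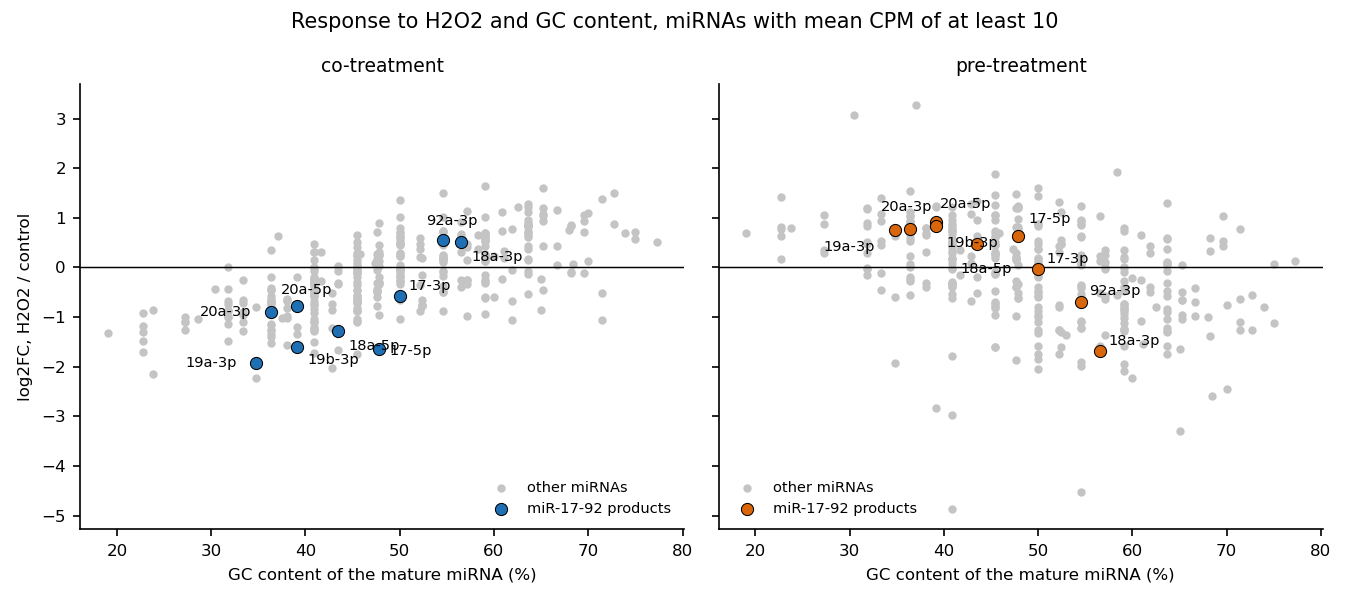
log2FC of H2O2 against control by the GC content of the mature miRNA, for miRNAs with a mean of at least 10 CPM, which leaves out miR-92a-1-5p. The cloud rises with GC content in co-treatment and falls in pre-treatment, and in co-treatment miR-17-5p and miR-19a-3p lie under most miRNAs of like GC content.

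When the GC trend of each library was removed as an offset, 4 of the 6 falls in co-treatment stayed called (edgeR quasi-likelihood test), against 3.57% of the 700 miRNAs with a GC value that were lowered in that fit. These were miR-17-5p (log2FC -1.56 ± 0.33 SE, FDR 0.0236), miR-19a-3p (-1.06 ± 0.27 SE, FDR 0.0368), miR-19b-3p (-0.93 ± 0.26 SE, FDR 0.0485) and miR-18a-5p (-0.86 ± 0.25 SE, FDR 0.0489), all by the quasi-likelihood test. The miR-20a arms were then near 0, at -0.13 ± 0.23 SE for miR-20a-5p and -0.14 ± 0.25 SE for miR-20a-3p. In pre-treatment, miR-18a-3p remained lowered with the offset (-1.43 ± 0.21 SE, FDR 0.0474, quasi-likelihood test), against 1.56% lowered among the 768 miRNAs in that fit. The other products that had been higher with H2O2 had smaller differences, such as 0.23 ± 0.22 SE for miR-19a-3p and 0.46 ± 0.24 SE for miR-20a-5p. Between the regimens, 4 products still differed in response with the offset (10.7% of 842 tested), namely miR-17-5p (2.09 ± 0.50 SE), miR-19b-3p (1.33 ± 0.37 SE), miR-19a-3p (1.30 ± 0.39 SE) and miR-18a-3p (-1.69 ± 0.44 SE), with FDR between 0.0215 and 0.0487 (quasi-likelihood test). miR-18a-5p (1.02 ± 0.36 SE), miR-20a-5p (0.61 ± 0.36 SE) and miR-20a-3p (0.37 ± 0.37 SE) no longer passed.

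**Figure D4:**
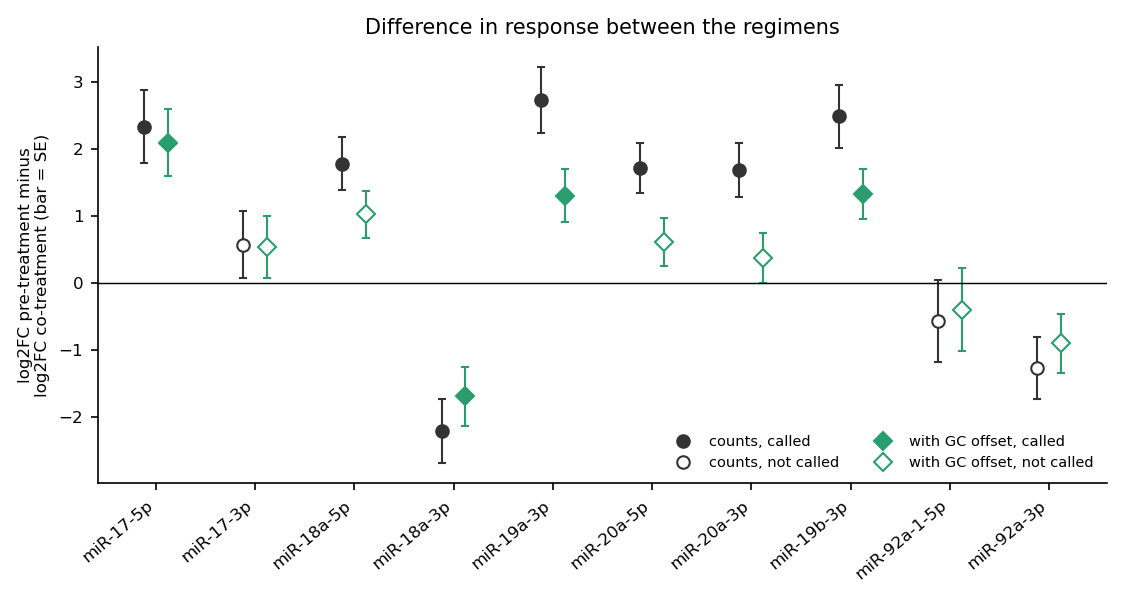
Difference in log2FC between the regimens (pre-treatment minus co-treatment, ± SE) for each product, from the counts and with the GC offset, with FDR under 0.05 filled. With the offset miR-17-5p goes from 2.33 to 2.09 and miR-18a-3p from -2.21 to -1.69, whereas miR-20a-5p falls to 0.61 and miR-20a-3p to 0.37.

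Within each library, the ratio of 1 product to another does not depend on scaling. Of 12 such ratios in co-treatment, 4 did not overlap between groups, all of them higher with H2O2. They were 3 of the 9 ratios to miR-17-5p and that of the miR-18a arms. Of all tested miRNAs, 53.5% did not overlap in their ratio to miR-17-5p, and of 203 pairs of arms 30.5% did not, so the share of members was below the former. The ratio of miR-18a-3p to its partner miR-18a-5p was 0.0919 in controls and 0.353 with H2O2 (geometric means), a difference of 1.94 on the log2 scale. Relative to miR-17-5p, miR-18a-3p was higher by 2.23, miR-92a-3p by 2.19 and miR-92a-1-5p by 1.24 on the log2 scale. The exact permutation test (two-sided) cannot go below 0.1 with 3 against 3 libraries, and each of these 4 ratios was at that limit (adjusted p = 0.3 over 12 ratios). By contrast, miR-19b-3p kept its ratio to miR-17-5p (0.0272 in both groups), with a difference of 0.0020 on the log2 scale that was far within its spread (SD 0.33 in controls and 0.24 with H2O2, n = 3 each). The ratio of miR-20a-3p to miR-20a-5p was 0.0106 in controls and 0.00965 with H2O2, with overlap. Without control 2, 9 of the 12 ratios did not overlap.

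In pre-treatment, 7 of the 12 ratios did not overlap between groups, namely 6 of the 9 to miR-17-5p (46% of all tested) and that of the miR-18a arms (41.2% of 226 pairs of arms). With 3 against 2 libraries, such a lack of overlap was thus common among all miRNAs. The ratio of miR-18a-3p to miR-18a-5p was 0.737 in controls and 0.168 with H2O2, a difference of -2.14 on the log2 scale, opposite to that of co-treatment. Relative to miR-17-5p, miR-18a-3p was at -2.35, miR-92a-1-5p at -1.45, miR-92a-3p at -1.29 and miR-17-3p at -0.75, whereas miR-20a-5p (0.23) and miR-19a-3p (0.11) were slightly higher. No exact permutation test (two-sided) could go below 0.2 with 3 against 2 libraries, and these 7 ratios were at that limit (adjusted p = 0.343 over 12 ratios). The ratio of the miR-20a arms again stayed near its level, at 0.0112 in controls and 0.0100 with H2O2. That of miR-92a-3p to miR-92a-1-5p was 153 in controls and 170.4 with H2O2, with overlap. The miR-20a arms thus kept their ratio in both experiments, whereas the miR-18a arms did not. The ratio of the miR-17 arms, counted here among those to miR-17-5p, also turned between experiments. It differed by 0.89 with overlap in co-treatment and by -0.75 without overlap in pre-treatment. That of the miR-92a arms overlapped in both (0.95 and 0.16). The miR-18a arms also differ more in GC content than the miR-20a arms (43.5% and 56.5%, against 39.1% and 36.4%), and the part of this was not tested. With the GC offset the log2FC of miR-18a-3p minus that of miR-18a-5p became 1.15 in place of 1.78 in co-treatment and -1.55 in place of -2.15 in pre-treatment. The differences of miR-18a-3p to miR-18a-5p ranged from 1.46 to 2.42 in co-treatment and from -2.46 to -1.81 in pre-treatment when each library was left out, and those of miR-92a-3p to miR-17-5p in pre-treatment were -2.26 without control 2 and -0.32 without control 1. With 1 of the 2 controls left out, a single control stood against 3 H2O2 libraries, where a lack of overlap says little.

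**Figure D5:**
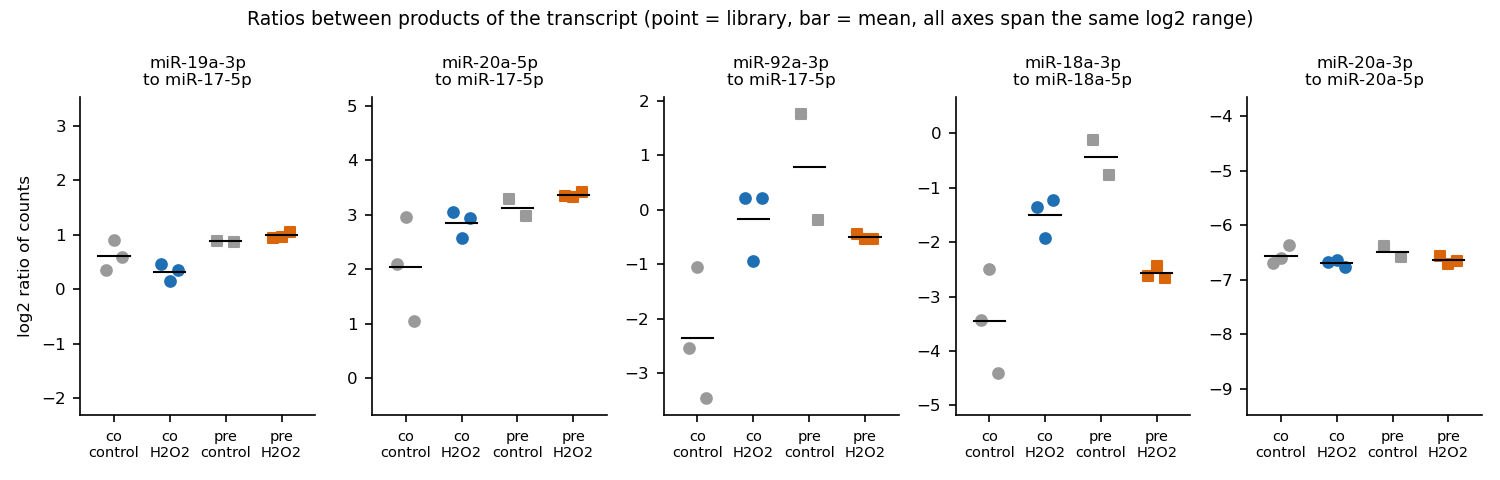
log2 ratios of counts between products of the transcript in each library, with a bar at the group mean and axes of equal span. The ratio of miR-18a-3p to miR-18a-5p is higher with H2O2 in co-treatment and lower in pre-treatment, while that of the miR-20a arms stays level.

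Across the 11 libraries, which share their experiment and treatment, log2 CPM of 6 products (miR-17-5p, miR-18a-5p, both miR-19 products and both miR-20a arms) ran together, with r of 0.76 to 0.98 between pairs. Pearson's r was 0.98 between miR-19a-3p and miR-19b-3p, 0.97 between miR-17-5p and miR-19b-3p, 0.97 between the miR-20a arms and 0.96 between miR-17-5p and miR-18a-5p (n = 11 libraries each). miR-17-3p ran with miR-17-5p only loosely (r = 0.46). miR-18a-3p and miR-92a-3p ran together (r = 0.80) and against the others, as in r = -0.76 between miR-92a-3p and miR-19a-3p and r = -0.52 between the miR-18a arms. Among replicates of a group, the order of libraries followed this division in some groups only. In pre-treatment H2O2 libraries, library 3 was the highest for 10 of 10 products, against 39.4% of all miRNAs tested. In co-treatment H2O2 libraries, library 2 was the highest for 8 products (39.9% of all tested) and the lowest for miR-18a-3p and miR-92a-3p. In pre-treatment controls, control 1 was the higher for miR-18a-3p and both miR-92a arms (46.4% of all tested) and the lower for the other 7 (53.6% of all tested), a split near that of all miRNAs. Co-treatment controls had no common order, since control 3 was the highest for miR-17-5p and the miR-19 products, control 1 for 5 products and control 2 for miR-18a-3p and miR-92a-3p.

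A further product of the transcript, miR-19b-1-5p, was at 25.1, 21.8 and 22.6 CPM in co-treatment controls and 12.03, 14.9 and 9.45 CPM with H2O2. It fell without overlap (log2FC -0.96 ± 0.29 SE, FDR 0.0115, edgeR exact test), as miR-19b-3p of the same hairpin did. In pre-treatment it was at 6.501 and 13.03 CPM in controls and 14.2, 16.3 and 21.6 CPM with H2O2 (log2FC 0.77 ± 0.43 SE, FDR 0.346, edgeR exact test). Its response differed between regimens (1.77 ± 0.50 SE, FDR 0.018, quasi-likelihood test). miR-19a-5p lay between 0 and 2.26 CPM, near the detection limit.

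The paralogous clusters arose from the same ancestral cluster and share several of its seeds. In the miR-106b-25 cluster, 1 of 6 products was lowered in co-treatment (miR-106b-5p, of the miR-17 seed, log2FC -2.03 ± 0.34 SE, FDR 7.31e-06, edgeR exact test) and 2 were raised (miR-106b-3p, log2FC 0.96 ± 0.31 SE, and miR-25-5p, 1.13 ± 0.29 SE). The abundant miR-93-5p (0.22 ± 0.19 SE) and miR-25-3p (-0.04 ± 0.20 SE) did not pass the test. In pre-treatment the 2 raised products were lowered, with miR-106b-3p at -1.21 ± 0.29 SE and miR-25-5p at -1.36 ± 0.43 SE (edgeR exact test). By the quasi-likelihood test neither fall passed (FDR 0.059 and 0.103), nor did either with the GC offset (FDR 0.0784 and 0.150). In co-treatment with the offset, miR-106b-5p (FDR 0.0209) and miR-25-5p (FDR 0.0486) passed the quasi-likelihood test. miR-106b-3p did not (log2FC 0.51, FDR 0.281). Of all miRNAs tested, 15.6% were lowered and 10.6% raised in co-treatment, and 9.91% were lowered in pre-treatment. In the miR-106a-363 cluster, 3 of 7 tested products were lowered in co-treatment, namely miR-106a-5p (-1.66 ± 0.32 SE), miR-18b-5p (-1.30 ± 0.32 SE) and miR-106a-3p (-1.09 ± 0.28 SE), whereas miR-20b-5p (-0.20 ± 0.25 SE) did not pass. In pre-treatment 1 of 8 tested was lowered, near the share of all miRNAs. It was miR-18b-3p (-2.17 ± 0.32 SE), the paralog of miR-18a-3p. Opposite arms of 1 hairpin with opposite values were therefore not found in the miR-17-92 transcript alone, as miR-106b-5p and miR-106b-3p had them in co-treatment. Members of both clusters that are near copies of miR-17-92 products may share reads with them.

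The miRNAs whose log2 CPM ran most like the mean profile of the 9 products with at least 10 CPM, out of 395 candidates over 11 libraries, were miR-376c-3p (r = 0.90), miR-106b-5p (r = 0.89), miR-561-5p (r = 0.87), miR-424-5p (r = 0.87) and miR-338-3p (r = 0.87). All 5 had a GC content between 36.4% and 42.9%. They were picked for likeness over the same libraries, so their changes with H2O2 follow in part from that choice. In co-treatment their log2FC were -0.81 ± 0.32, -2.03 ± 0.34, -1.40 ± 0.31, -1.51 ± 0.32 and -1.29 ± 0.27 SE. The last 4 were called as lowered (edgeR exact test), against 15.6% of all miRNAs tested. In pre-treatment their log2FC lay between 0.23 and 0.91 and none was called. Within the transcript, miR-18a-5p followed this profile best (r = 0.96), and miR-18a-3p (r = -0.41) and miR-92a-3p (r = -0.49) ran against it although they are part of it.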

How the data were processed

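Small RNA of SH-SY5Y cells was sequenced in 11 libraries made with a QIAseq miRNA kit. The authors trimmed the reads with cutadapt 2.10, mapped them to hg19 (Bowtie2 2.4.1), and summed them by mature miRNA (HTSeq 0.7.2), and the deposited counts are raw. Use of molecular identifiers and treatment of multiply mapped reads are not given in the sources used here. The deposited tables of the authors' own comparisons (log2 fold changes, log2 CPM, p-values and FDR) were not used.

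Each experiment was analysed by the exact test of edgeR 4.0.16 (R 4.3.3, TMM scaling, FDR under 0.05 by Benjamini-Hochberg over all miRNAs tested, absolute log2FC above 0.6). A miRNA was tested when at least 3 (co-treatment) or 2 (pre-treatment) libraries exceeded the CPM that 5 counts make in the smallest library. Standard errors (SE) come from edgeR's quasi-likelihood fit. The interaction was tested in 1 quasi-likelihood fit of 11 libraries with no log2FC threshold. Ratios were formed with 0.5 counts added. For the GC offset, the deviation of each miRNA's log2 CPM from its mean over the libraries of the fit was taken. Each library's lowess trend (span 0.5) of these deviations on the GC content of the RefSeq mature sequence was removed. The trend was fitted to miRNAs with a mean of at least 10 CPM and applied to all with a GC value. A GC value was found for 363 of 409 miRNAs (88.8%) with at least 10 CPM in co-treatment and 348 of 395 (88.1%) in pre-treatment, scaled within the experiment. The GC classes used CPM scaled over 11 libraries, which gave 359 of 405 and 350 of 398.

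All 10 members were named, and others by fixed lists or by likeness of profile. The members and lists were chosen with earlier results of these data known. The study describes its replicates as biological, and p-values measure the spread between these samples. Totals ranged from 5343953 to 8927582 counts, and limits cover counting error only. Alternatives were edgeR's quasi-likelihood test, DESeq2 1.42.0, other scalings, filters and thresholds, the GC offset, the replicate number as a block, 1 joint fit, and the omission of each library.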

Additional observations from a re-analysis of the deposited data

Results flagged for a closer look

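For 7 products the response to H2O2 differed between the regimens by the test of that difference itself (edgeR quasi-likelihood test of the interaction, FDR under 0.05, n = 11 libraries), as it did for 27.3% of the 945 miRNAs tested. The difference in log2FC, pre-treatment minus co-treatment, was 2.73 for miR-19a-3p (FDR 0.00221), 2.49 for miR-19b-3p (FDR 0.00261), 2.33 for miR-17-5p (FDR 0.00700), 1.77 for miR-18a-5p (FDR 0.00551), 1.71 for miR-20a-5p (FDR 0.00489) and 1.69 for miR-20a-3p (FDR 0.00812). For miR-18a-3p it was -2.21 (FDR 0.00502), the only one of the 7 to run the other way. The controls of the 2 experiments also differed in level, with miR-17-5p at a mean of 4618 CPM in co-treatment and 811 CPM in pre-treatment. With H2O2 its means were 1487 and 1312 CPM. The GC trend of the libraries moved in opposite directions in the 2 experiments, and with the GC offset 4 of the 7 differences still passed, those of miR-17-5p, miR-18a-3p, miR-19a-3p and miR-19b-3p, against 10.7% of the 842 miRNAs in that fit.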

How the results depend on the processing

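The co-treatment count of 6 called products stayed between 4 and 8 under all alternatives but the GC offset with the replicate block, which gave 0 (5 at an unadjusted p under 0.05), and log2FC of the 10 products turned sign under none. The pre-treatment count of 1 became 2 with library size in place of TMM and in 1 fit of 11 libraries. It became 0 with the replicate block and with the GC offset and block (1 each at an unadjusted p under 0.05). It was also 0 without any 1 of the H2O2 libraries (1 or 2 at an unadjusted p under 0.05). Leaving out a control leaves 1 control, and no count is given for those fits. Under the pre-treatment alternatives, 7 values turned sign. miR-17-3p was at 0.016 with library size, 0.12 with no low-count filter, 0.020 in 1 fit and -0.23 to 0.23 with each library left out, and miR-92a-1-5p ranged from -1.49 to 0.064. The count of 7 differences between regimens became 4 with the GC offset and 0 with the offset and block (5 at an unadjusted p under 0.05), a setting added after seeing the data, and miR-92a-1-5p ranged from -1.14 to 0.24. The cause of these changes was not tested. These fits were made with edgeR, other than those of DESeq2, which called 6, 1 and 8 products.

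Same-numbered deviations from the group means correlated at 0.04, -0.25 and -0.26 in co-treatment and 0.36 and -0.03 in pre-treatment. Whether replicate numbers pair the samples cannot be decided from these values, since deviations within such small groups depend on each other. With the replicate block 5 products were called in co-treatment, 0 in pre-treatment and 6 between regimens.

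The number of ratios without overlap ranged from 4 to 9 in co-treatment and was at least 7 in pre-treatment when each library was left out. Differences that turned sign were those of miR-18a-5p to miR-17-5p (-0.0018 to 0.55 in co-treatment and -0.53 to 0.10 in pre-treatment), miR-19b-3p to miR-17-5p (-0.11 to 0.19 in co-treatment), miR-20a-3p to miR-17-5p (-0.18 to 0.33 in pre-treatment) and miR-92a-3p to miR-92a-1-5p (-0.041 to 0.36 in pre-treatment). Adding 1 count in place of 0.5 turned none. At 4.06 to 15.3 CPM, depth limited miR-92a-1-5p most among the members.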
